A study of Mus musculus with 6 samples.

Results

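Genes of splicing factors and heterogeneous nuclear ribonucleoproteins (hnRNPs) were described in mouse neural stem cells that carried a hairpin RNA against the transcription factor Sox4 or a scrambled one. Members were the genes of the authors' deposited table whose symbol belongs to a fixed set of splicing families (Srsf, Tra2, Srrm, Hnrnp, Sf1, Sf3a, Sf3b, U2af, Snrp, Snrnp, Prpf, Lsm, Luc7l, Rbm, Rbfox, Ptbp, Mbnl, Celf, Nova and Qk) and whose level reached 1 in either condition. Levels are taken as FPKM, a level per transcript length, although the header of the table does not state a unit. This gave 136 members among 12316 gene rows, and 11564 genes with a row of their own and a level of at least 1 served as the background. A further 8 rows held a matching symbol and were left out, 4 because the row named several genes and 4 because the level stayed under 1.

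There were 6 libraries of poly(A) RNA from CD-1 cells of stage E14.5, bought commercially, grown on laminin with EGF and bFGF, infected with lentivirus and kept under puromycin. The labels give 2 libraries for each of 2 Sox4 hairpins (TRCN0000012078 and TRCN0000012080), and 2 for the scrambled hairpin SHC002. The design text calls the duplicates biological, taken at different passages, and speaks of 1 Sox4 hairpin where the labels list 2. Whether passages were separate cultures is not stated, so the spread behind the authors' p-values may be technical. The values are the authors' own comparison, with 1 level per gene and condition. Its header names neither the conditions nor the libraries behind them, so every fold below sets the second condition over the first one. Sox4 itself stood at 83.9 in the second and 126.8 in the first condition in the authors' deposited table, where its q was 0.0543 and it was not called, and was not used to name the conditions.

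Splicing removes introns from pre-mRNA. Small nuclear ribonucleoproteins (snRNPs), each built of an RNA and proteins that include a ring of Sm or LSm subunits, mark the splice sites and form the spliceosome, while SR proteins and hnRNPs bound to exons and introns help or hinder the choice of a site. In the developing brain, families such as Ptbp, Nova, Rbfox, Mbnl, Celf and Qk change exon choice as precursors become neurons or glia.

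The upstream sequences of 4 members are shown because these genes stand for both ends of the results: Prpf8, the only member called by the authors, its partner Snrnp200, and the ring subunits Lsm8 and Snrpe, which had the lowest folds of their families. Each is the 250 bases before the RefSeq transcription start on GRCm38.p6, read along the gene's strand, with matches to the motifs named below in capitals. The windows are chr11:75486527-75486776 (plus strand), chr2:127208136-127208385 (plus strand), chr6:18848385-18848634 (plus strand) and chr1:133610281-133610530 (minus strand).
Prpf8: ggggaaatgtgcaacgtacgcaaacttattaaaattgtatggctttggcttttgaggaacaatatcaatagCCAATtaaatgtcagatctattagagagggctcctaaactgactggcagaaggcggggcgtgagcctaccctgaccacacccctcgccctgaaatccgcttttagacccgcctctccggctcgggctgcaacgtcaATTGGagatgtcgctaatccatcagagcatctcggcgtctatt
Snrnp200: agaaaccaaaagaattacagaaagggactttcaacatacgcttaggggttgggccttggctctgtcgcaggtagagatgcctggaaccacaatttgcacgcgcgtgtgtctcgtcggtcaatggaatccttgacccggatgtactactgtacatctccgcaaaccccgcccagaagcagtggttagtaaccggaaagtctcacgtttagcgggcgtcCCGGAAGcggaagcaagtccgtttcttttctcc
Lsm8: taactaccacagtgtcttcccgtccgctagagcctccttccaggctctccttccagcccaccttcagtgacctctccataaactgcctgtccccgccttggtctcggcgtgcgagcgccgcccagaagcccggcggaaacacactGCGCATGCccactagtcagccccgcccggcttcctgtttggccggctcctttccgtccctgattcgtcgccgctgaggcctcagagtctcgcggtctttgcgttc
Snrpe: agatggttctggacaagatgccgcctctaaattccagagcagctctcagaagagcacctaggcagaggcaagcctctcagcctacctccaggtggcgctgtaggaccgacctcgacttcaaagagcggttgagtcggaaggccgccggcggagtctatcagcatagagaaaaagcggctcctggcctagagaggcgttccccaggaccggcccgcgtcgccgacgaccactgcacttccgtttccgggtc

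In the Prpf8 window the capitals mark a CCAAT box that begins 179 bases before the start and another on the opposite strand that begins 43 bases before it. The Snrnp200 window holds CCGGAAG, the core bound by ETS factors, beginning 33 bases before the start. The Lsm8 window holds GCATGCGC, a core bound by NRF1, on the opposite strand at 105 bases before the start, and the Snrpe window holds none of the motifs searched. Promoters of 113 of the 136 members were found by symbol, and 8700 background genes had one. The letters ACAAAG, a core bound by SOX proteins, stood in a window of 17 of these 113 members, against 1245 of the 8700 background genes, or 14.3%. ACAATG stood in 6 members, 5.31%, against 7.40% of the background. CCGGAAG stood in 26 members, 23.0%, against 16.6% of the background, and GCATGCGC in 10 members, 8.85%, against 5.48% of the background. CCAAT stood in 50 members, 44.2%, against 41.2% of the background. AAGATGGC, a core bound by YY1, stood in 6 members, 5.31%, against 2.61% of the background. The ETS, NRF1 and YY1 letters were thus somewhat more frequent in members, which was not tested, and the YY1 share rests on 6 members. Both strands were searched, matches could overlap, and a gene with several starts counted once if any window matched. A match is a run of letters and was not tested as a binding site.

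Splicing factor genes were abundant, and 1 of them was called as different between the conditions. Of 136 members 1 rose, 0 fell and 135 were not called in the authors' deposited table, where a gene is called by the authors' own flag, set at a q under 0.05. That is 0.735% of the members, beside 5.18% of the 11564 background genes, 3.29% called higher and 1.89% called lower. At an unadjusted p under 0.05 there were 20 members, 10 higher and 10 lower, which is 14.7% beside 17.8% of the background. No other test was run, because values per library are not given. The members' median log2 fold was -0.04, with quartiles of -0.18 and 0.14, beside a background median of 0.00039 and quartiles of -0.21 and 0.21. The median absolute log2 fold was 0.17 for members and 0.21 for the background, and 0.18 for the 3591 background genes whose mean level lay between the members' quartiles of 18.6 and 83.7. An absolute log2 fold of 1 was reached by 0 members, by 3.24% of the background and by 1.03% of these 3591 genes of similar level. Of the 3591 genes, 4.12% were called and 15.5% had an unadjusted p under 0.05, beside 0.735% and 14.7% of members. The smallest absolute log2 fold that carried the flag anywhere in the authors' deposited table was 0.55, and 130 of the 136 members lay below it. Differences of the size most members showed were therefore under what this comparison called for any gene.

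Members' mean levels ranked at a median percentile of 80.1 among the background genes, and 7 of the 10 most abundant members were hnRNP genes. Summed over members, the level was 9704 in the second and 10122 in the first condition. Leaving out 1 row that alone held over 37% of all levels, this was 2.05% of the summed levels in the second and 2.03% in the first condition. The ratio of log2 fold to test statistic, which equals the standard error if the statistic is a log fold over its error, is called the implied error here. The authors' p-values for members were smaller than a normal test of that statistic would give. Prpf8, for example, had a statistic of 1.88 and a Cuffdiff p of 0.0021. The implied error is thus larger than the error behind those p-values, and serves here only to compare genes. The median implied error was 0.31 over members and 0.35 over the background.

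**Figure D1:**
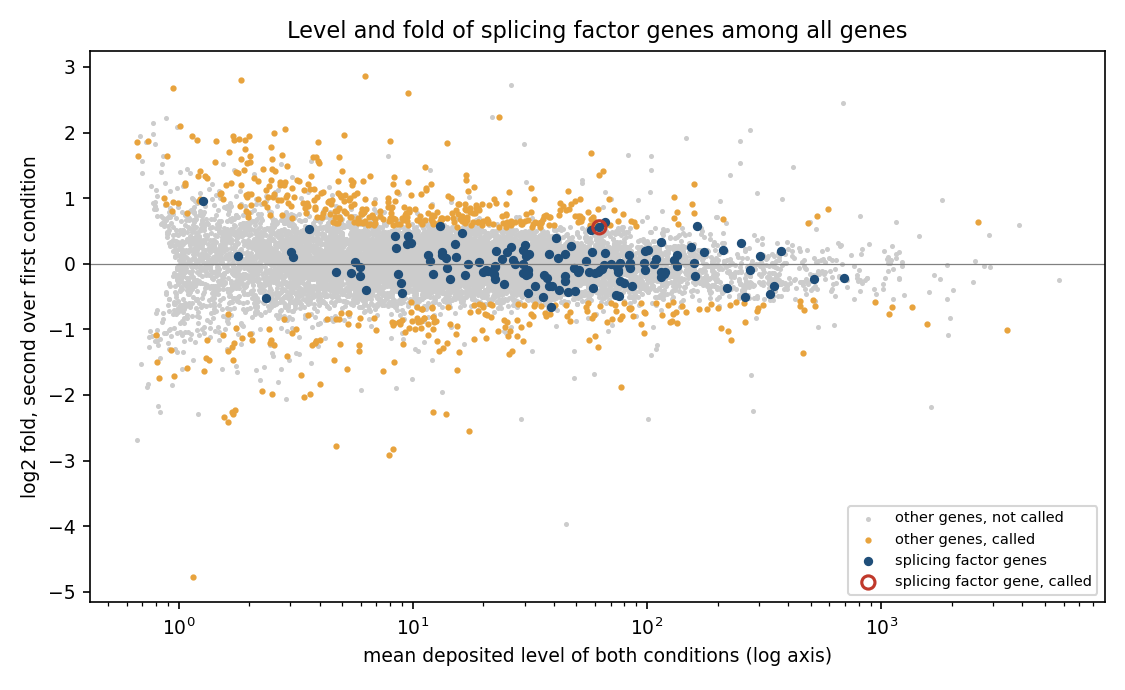
Log2 fold of the second over the first condition against the mean deposited level (log axis) for 136 splicing factor genes (blue) and other background genes (grey, or orange where called), without the 1 row of highest mean level, 300923. The members lie right of most genes and within a log2 fold of -0.65 to 0.96, and only Prpf8 is ringed as called.

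Among proteins of the U2, U4/U6, U5 and minor snRNPs and of spliceosome activation, 1 of 18 rose and 0 fell. Prpf8, the scaffold of the spliceosome's catalytic centre in the U5 snRNP (chromosome 11, 75486816 to 75509449, plus strand), rose to 74.5 in the second condition, against 50.7 in the first, in the authors' deposited table. That is a log2 fold of 0.56 with an implied error of 0.30, and the Cuffdiff q in the authors' deposited table was 0.0485, close to the threshold. Snrnp200, the helicase beside Prpf8 that unwinds U4 from U6, stood at 67.7 in the second and 47.5 in the first condition in the authors' deposited table, with a q of 0.0789. Both genes thus had similar levels in each condition, with a ratio of Prpf8 to Snrnp200 of 1.10 in the second and 1.07 in the first condition. Other U5 proteins had smaller folds, none called. Eftud2, a GTPase of U5 outside the member list, had a log2 fold of 0.15, and its q was 0.759 in the authors' deposited table. Prpf6 had a log2 fold of -0.17 and Snrnp40 of -0.05 there.

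The U4/U6 proteins Prpf3, Prpf4 and Prpf31 had log2 folds of 0.17, 0.14 and 0.12 in the authors' deposited table, none called. Snrnp27, a protein of the U4/U6.U5 particle, stood at 39.1 in the second and 52.6 in the first condition in the authors' deposited table, with a q of 0.286. Proteins of the minor spliceosome, which removes a rare class of introns, went both ways. Snrnp48 stood at 7.61 in the second and 10.3 in the first condition in the authors' deposited table, with a q of 0.364, Snrnp35 had a log2 fold of -0.15 and Snrnp25 of 0.20. The U2 proteins Snrpa1 and Snrpb2 had log2 folds of 0.14 and -0.31 in the authors' deposited table.

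**Figure D2:**
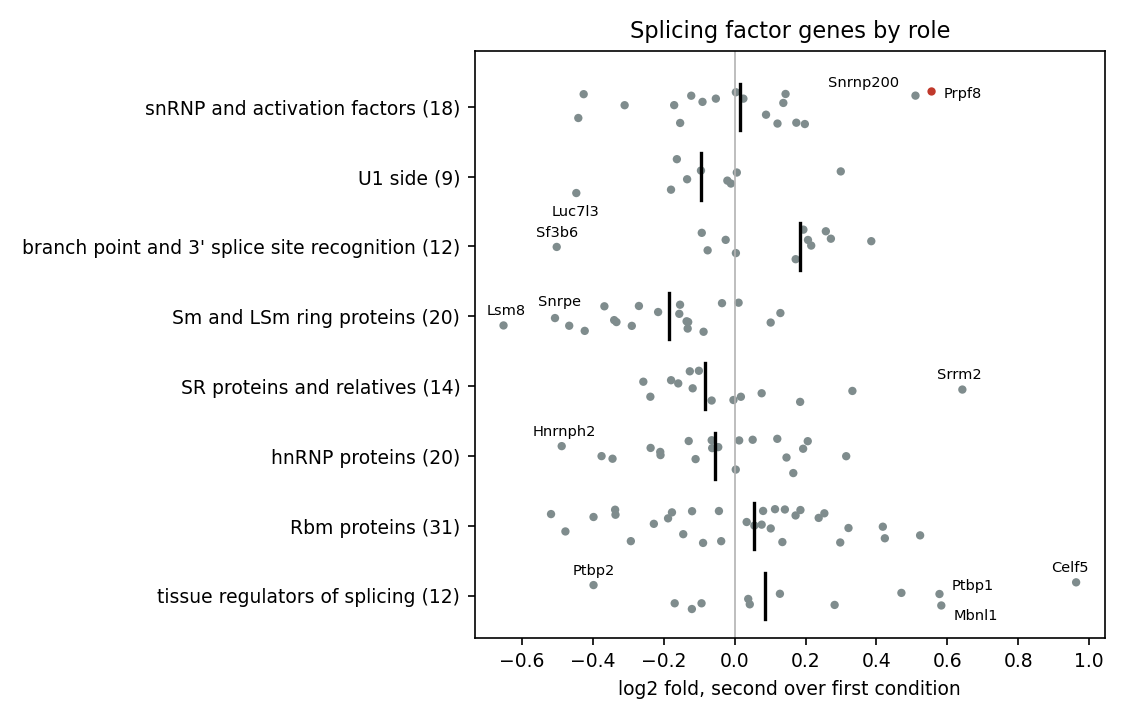
Log2 fold of the second over the first condition for each of the 136 genes, by role, with the number of genes in brackets; points are spread vertically for clarity, black bars are medians and red marks the gene called. The medians run from -0.19 for Sm and LSm proteins to 0.18 for branch point and 3' splice site proteins, and most points lie between -0.5 and 0.5.

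On the U1 side, whose snRNP marks the 5' splice site, 0 of 9 were called and 7 had a negative log2 fold, with a median of -0.09. The U1 proteins Snrnp70 and Snrpa had log2 folds of 0.01 and -0.02, and Snrpc, the most abundant of the group, stood at 111.8 in the second and 125.1 in the first condition in the authors' deposited table. Luc7l3, a U1-associated protein, had the lowest fold, with 26.2 in the second and 35.6 in the first condition, and its q was 0.181 in the authors' deposited table. Its relatives Luc7l and Luc7l2 had log2 folds of -0.01 and -0.13 there.

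Proteins that recognise the branch point and the 3' splice site had the highest median log2 fold of the 8 roles, 0.18, with 8 of 12 positive and 0 called. Sf3b2, a subunit of the SF3b complex of U2, was the most abundant, at 186.2 in the second and 165.3 in the first condition in the authors' deposited table, with a q of 0.718. Sf3a2, a subunit of SF3a, stood at 46.4 in the second and 35.5 in the first condition there, with a q of 0.298. U2af2, which binds the polypyrimidine tract, had a log2 fold of 0.26, while its partner U2af1, which binds the AG at the end of the intron, had -0.09 in the authors' deposited table. Sf3b6, the small SF3b subunit at the branch point adenosine, had the lowest fold of the group, at 29.6 in the second and 42.0 in the first condition, and its q was 0.168 in the authors' deposited table. Sf3b1, the largest SF3b subunit, had a log2 fold of -0.08 there.

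Genes of the Sm and LSm family had the lowest median log2 fold, -0.19, with 17 of 20 negative and 0 called. Less the median of background genes of similar length (1 of 10 length groups), it was -0.09, as it was for tissue regulators, beside -0.08 for the U1 side. A negative log2 fold was held by 49.9% of all background genes and by 72.5% of those up to 1500 nt. The rings themselves are made by the 7 core Sm proteins, which wrap the U1, U2, U4 and U5 RNAs, and by LSm2 to LSm8, which hold the end of U6. All 7 core Sm genes (Snrpb, Snrpd1, Snrpd2, Snrpd3, Snrpe, Snrpf and Snrpg) had a negative log2 fold, with a median of -0.27, and so had 6 of the 7 genes Lsm2 to Lsm8, with a median of -0.29. Snrpe stood at 215.5 in the second and 306.2 in the first condition in the authors' deposited table, with a q of 0.108. Snrpg, the most abundant, stood at 281.7 in the second and 389.2 in the first condition there, with a q of 0.159. Snrpb, the gene of the ring's B subunit, had nearly the same level, at 133.2 in the second and 136.5 in the first condition, and its q was 0.962 in the authors' deposited table. The subunits of one ring thus had log2 folds from -0.51 to -0.04, and the implied errors had a median of 0.32.

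Lsm8, the subunit that sets the nuclear U6 ring apart from the cytoplasmic one, had the lowest fold of all members, at 30.3 in the second and 47.6 in the first condition, with a log2 fold of -0.65 and an implied error of 0.37, and its q was 0.0699 in the authors' deposited table. Its transcript has 807 nt, and less the median of its length group the log2 fold was -0.42, above the -0.52 of both Luc7l3 and Hnrnph2 on that scale. Lsm1, which takes the place of Lsm8 in the ring for mRNA decay, stood at 5.20 in the second and 5.71 in the first condition there. Lsm2 was the exception among the U6 ring genes, with a log2 fold of 0.01. The other 6 genes of the group are not part of these rings: Lsm10 and Lsm11 belong to the U7 snRNP of histone mRNA processing, while Lsm1, Lsm12, Lsm14a and Lsm14b have roles outside the spliceosome, and the median log2 fold of the 6 was -0.13. Snrpn, a neuronal relative of Snrpb from an imprinted locus, was left out because its row also names Snurf. That row stood at 31.1 in the second and 44.3 in the first condition in the authors' deposited table, with a q of 0.107.

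**Figure D3:**
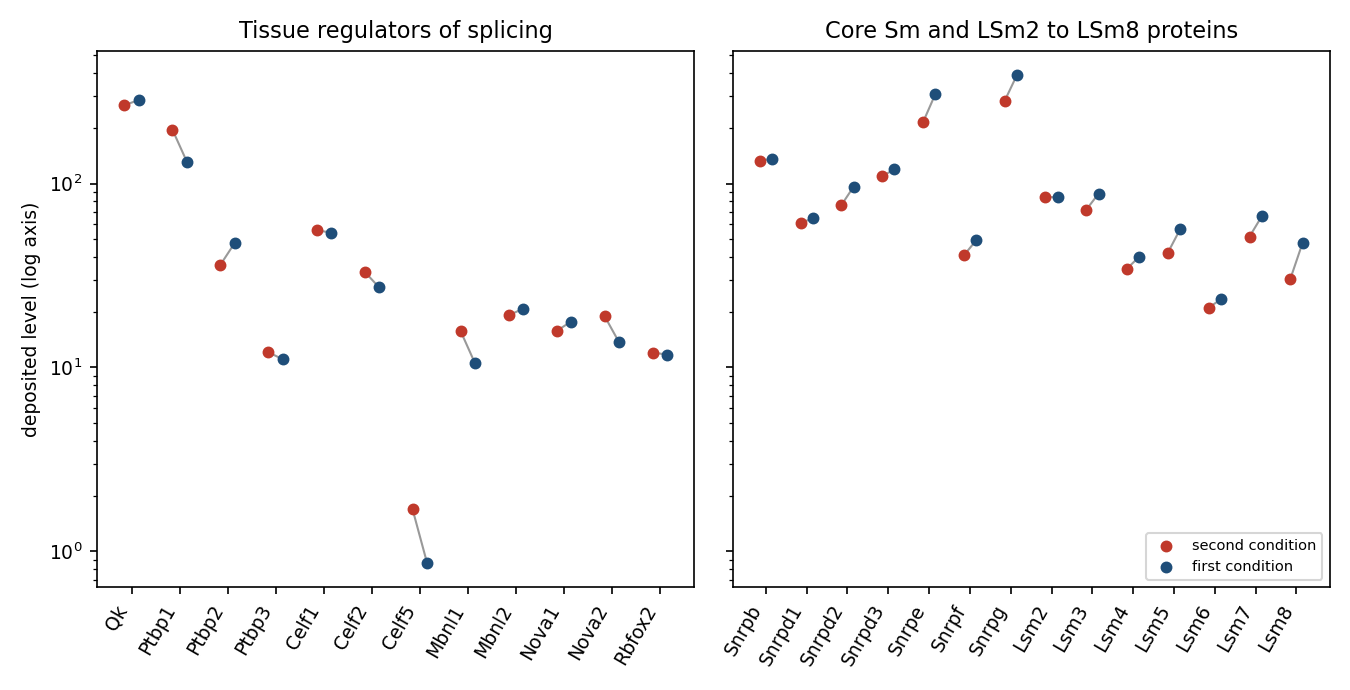
Deposited level (log axis) in the second (red, left) and first condition (blue, right) of 12 tissue regulators and of 14 ring subunits, each point being 1 value per condition with no replicate error. In the right panel every gene but Lsm2 is lower in the second condition, while in the left panel Ptbp1 and Ptbp2 go opposite ways.

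Transcript length moved with these differences. The 14 ring subunits have short transcripts, of 899 nt in the median beside 3205 nt for the background, and background genes also had lower folds the shorter they were. With the background cut into 10 equal groups by length, the median log2 fold was -0.23 in the shortest group, up to 1251 nt, and 0.23 in the longest, from 6876 nt. Taking off the median of a gene's own length group left the 14 ring genes with a median of -0.12, where it had been -0.28. For branch point and 3' splice site genes, of 2718 nt in the median, 0.18 became 0.15. On the same scale Snrpe had -0.28, where the deposited log2 fold was -0.51, and Snrpg -0.24 in place of -0.47. Sf3b6 had -0.27 in place of -0.50, and Snrnp27 -0.20 in place of -0.43. Folds of long transcripts were lowered, as Nova2 with 0.24 in place of 0.47 and Nova1 with -0.40 in place of -0.17. Over all 136 members Spearman's rho between length and log2 fold was 0.45, and over 11487 background genes it was 0.33, given as descriptions over genes of the same libraries. Members up to 1500 nt had a median log2 fold of -0.22 with 20 of 23 negative, and background genes of that length -0.19. Negative folds made up 87.0% of these members and 72.5% of background genes of that length. Members over 5000 nt had a median of 0.13 with 20 of 27 positive, and background genes of that length 0.16. Here negative folds made up 25.9% of members and 29.6% of background genes. Prpf8, of 7442 nt, is 1 of 13 members in the longest group, in which 13.8% of background genes were called higher. Less the median of that group, Prpf8 had a log2 fold of 0.32. The part of length in these differences was not tested.

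**Figure D4:**
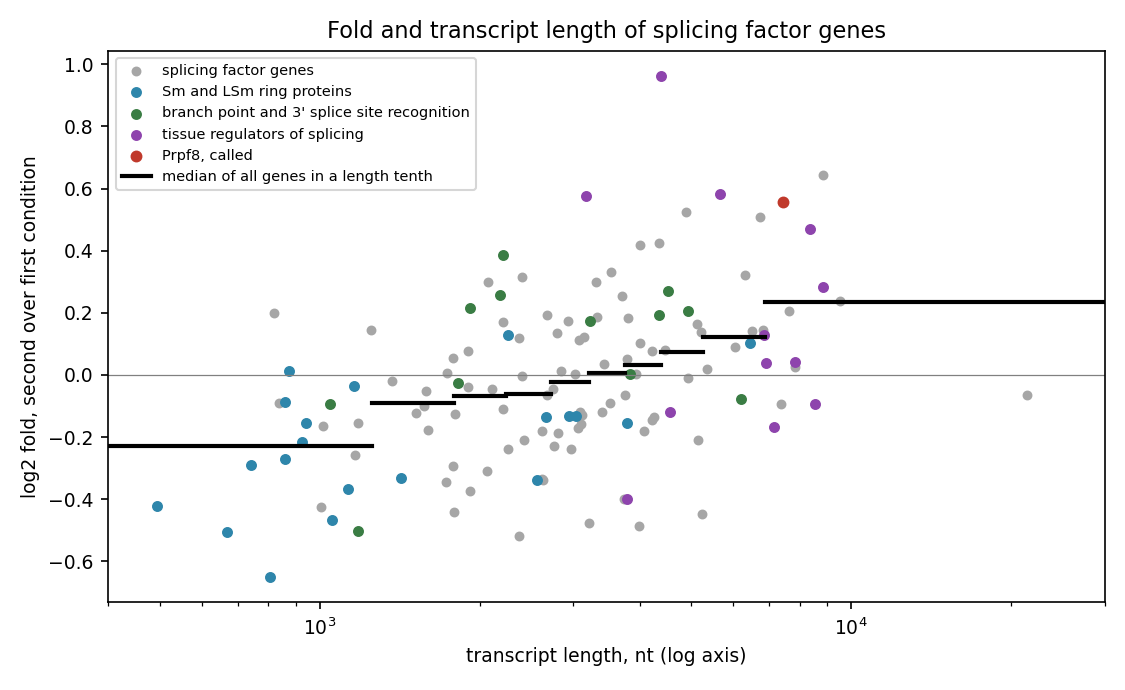
Log2 fold of the second over the first condition against transcript length (log axis) for 136 splicing factor genes, with 3 roles and Prpf8 coloured; black bars are the median of all background genes in each of 10 length groups. The bars climb from -0.23 to 0.23, most ring subunits lie at the lower left, and Prpf8 lies above the bar of its group at the right.

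The SR proteins and their relatives, which bind exons and mostly favour their inclusion, had 0 of 14 genes called and a median log2 fold of -0.08. Srsf3, the most abundant, stood at 150.9 in the second and 170.9 in the first condition in the authors' deposited table, with a q of 0.813. Srsf1, Srsf2 and Srsf7 had log2 folds of 0.02, 0.08 and -0.0033 there, while Srsf6 had 0.33 and Srsf9 -0.26. The Srsf genes thus lay within a log2 fold of -0.26 to 0.33, and the widest difference belonged to a relative. Srrm2, a very large SR-related protein of nuclear speckles, stood at 80.7 in the second and 51.7 in the first condition, with a log2 fold of 0.64 and an implied error of 0.36, and its q was 0.0715 in the authors' deposited table. It is 8864 nt long, its exons overlap those of Elob on the other strand, and its log2 fold less the median of its length group was 0.41. Tra2a and Tra2b, which act with SR proteins on purine-rich enhancers, had log2 folds of -0.13 and -0.12 in the authors' deposited table.

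The hnRNP genes were the most abundant role, with a median level of 122.8, and 0 of 20 were called. Hnrnpa3 stood at 643.0 in the second and 743.7 in the first condition, and Hnrnpk, which binds C-rich RNA, at 474.9 in the second and 559.7 in the first condition in the authors' deposited table. Hnrnpl, which binds CA repeats, stood at 396.8 in the second and 347.1 in the first condition there, and Hnrnpa2b1 at 307.1 in the second and 389.8 in the first. None of these 4 differed beyond the authors' threshold, with q between 0.339 and 0.705 in the authors' deposited table. The A and B type genes Hnrnpa1, Hnrnpa2b1 and Hnrnpa3, whose proteins often favour exon skipping, had log2 folds of -0.38, -0.34 and -0.21, and Hnrnpa0 and Hnrnpab had -0.06 and 0.12 in the authors' deposited table. Hnrnph2 had the lowest fold, at 63.4 in the second and 88.9 in the first condition, with a q of 0.103, while its paralogue Hnrnph1 stood at 106.7 in the second and 123.4 in the first condition there. Hnrnpf, which binds the same G-rich runs, went the other way with a log2 fold of 0.31, and its q was 0.394 in the authors' deposited table. Hnrnpc and Hnrnpm had log2 folds of 0.01 and 0.0032 there.

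Near copies limit several of these values. A transcript of another gene matched over at least 200 bases at 95% identity or more for 36 of 136 members, 27 genes for Hnrnpa3, 8 for Hnrnpa1, 6 for Hnrnpf, 4 each for Srsf3, Rbm3 and Tra2b, 3 each for Snrpc, Lsm6 and U2af1, and 1 or 2 for the others, Snrpg, Snrpe and Ptbp1 among them. Of the 27 copies of Hnrnpa3, 26 are annotated as pseudogenes. Copies that are not pseudogenes were found only for Hnrnpa3, Srsf3, Rbm4b, Rbm8a, Rbm12b1 and Rbm12b2. Reads of members with a near copy may be split among copies, and how the authors counted such reads is not given in the sources used here. Exons of 42 members overlap those of a gene on the other strand, and reads of both cannot be separated unless counting took account of strand.

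Of the tissue regulators 0 of 12 were called, and 4 had an unadjusted p under 0.05, which is 33.3% beside 17.8% of the background and 27.6% of background genes over 5000 nt. Among these 4 is Celf5, which passed the level rule only through the condition where it is higher. The 33.3% therefore includes a difference built into the choice of members and is not read as an excess. Transcripts of the tissue regulators are long, of 6881 nt in the median, and their median log2 fold of 0.09 became -0.09 once the length group's median was taken off. Ordered by mean level, Qk came first, then Ptbp1, Celf1, Ptbp2, Celf2, Mbnl2, Nova1, Nova2, Mbnl1, Rbfox2, Ptbp3 and Celf5. Qk, an RNA-binding protein of glia and neural precursors, stood at 267.1 in the second and 284.9 in the first condition in the authors' deposited table. Ptbp1, which keeps neuronal exons skipped in precursors, stood at 196.7 in the second and 131.8 in the first condition in the authors' deposited table. The log2 fold of 0.58 was close to that of Prpf8, but its q was 0.695 and its implied error of 0.93 was the highest of all members. Exons of Ptbp1 overlap Plppr3, Gm17134 and E130317F20Rik on the other strand. Ptbp2, the relative used as neurons form, stood at 36.2 in the second and 47.7 in the first condition in the authors' deposited table, with a p of 0.0292 and a q of 0.233. The ratio of Ptbp1 to Ptbp2 was 5.44 in the second and 2.76 in the first condition, a difference that was not tested and carries the wide error of Ptbp1. Ptbp3 stood at 12.1 in the second and 11.1 in the first condition there.

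Mbnl1, a zinc finger protein of fetal to adult splicing switches, stood at 15.7 in the second and 10.5 in the first condition, with a log2 fold of 0.58 and an implied error of 0.31, and its q was 0.0580 in the authors' deposited table. With q recomputed over the 11564 background genes it was 0.0488, under the threshold. Mbnl2 stood at 19.2 in the second and 20.9 in the first condition in the authors' deposited table. Nova2, a neuronal regulator, stood at 18.9 in the second and 13.7 in the first condition, with a q of 0.131, and Nova1 at 15.8 in the second and 17.8 in the first condition in the authors' deposited table. Nova2 was thus above Nova1 in the second condition and below it in the first, with neither called. Celf1 and Celf2 had log2 folds of 0.04 and 0.28, and Rbfox2 stood at 12.1 in the second and 11.7 in the first condition in the authors' deposited table. Celf5, a brain member of its family, stood at 1.69 in the second and 0.866 in the first condition in the authors' deposited table, with a q of 0.0623. It is the only member that passed the level of 1 in a single condition, so a difference was built into its passing, and its exons overlap those of Gm16105 on the other strand. Just inside the level rule were also Rbm12b1 at 1.87 in the second and 1.72 in the first condition and Rbm48 at 1.95 in the second and 2.79 in the first condition in the authors' deposited table. Just outside were Rbfox3, a marker of mature neurons, at 0.979 in the second and 0.605 in the first condition, and Rbm46 at 0.903 in the second and 0.432 in the first there. Srsf12 stood at 0.701 in the second and 0.944 in the first condition, and Celf3 at 0.726 in the second and 0.642 in the first, also outside the rule.

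The 31 Rbm genes, named for an RNA recognition motif and varied in function, had a median log2 fold of 0.06, with 17 positive and 0 called. Rbm3, a protein induced by cold, was the most abundant at 140.5 in the second and 127.9 in the first condition in the authors' deposited table. Rbm3os, a noncoding transcript on its other strand and the only member without a protein, stood at 49.8 in the second and 52.9 in the first condition there. Rbm20, known for splicing of titin in the heart, stood at 4.25 in the second and 2.96 in the first condition in the authors' deposited table, with a q of 0.181. Rbm15, an adaptor of RNA methylation, and Rbm19, a nucleolar protein, had log2 folds of 0.42 each, with q of 0.300 and 0.287 in the authors' deposited table. Rbm5, a regulator of exons in apoptosis genes, stood at 61.8 in the second and 86.1 in the first condition, with a q of 0.283 there. Its neighbour and relative Rbm6, which lies 2562 bases away on chromosome 9, stood at 15.9 in the second and 14.8 in the first condition there. Rbm48 had a log2 fold of -0.52, with an implied error of 0.77, and its q was 0.656 in the authors' deposited table. Rbm8a, a core protein of the exon junction complex, had a log2 fold of -0.23 there.

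Members stood on 20 chromosomes, and 5 pairs lay within 100000 bases of each other: Rbm5 and Rbm6, Rbm3 and Rbm3os, Hnrnpd and Hnrnpdl, Sf3a2 and Lsm7, and Rbm12b2 and Rbm12b1. In 4 of these 5 pairs the log2 folds had opposite signs, as in Sf3a2 with 0.39 and Lsm7 with -0.37 in the authors' deposited table. None of the paired genes was called. Rbm6, Rbm3, Rbm3os, Hnrnpd and Hnrnpdl had log2 folds between -0.09 and 0.15, smaller in size than their implied errors, so their signs carry little.

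Other genes of the splicing pathway, were listed by function. Of 92 measured among 98 listed, 1 rose, 1 fell and 12 had an unadjusted p under 0.05, and the median log2 fold was 0.01. That is 2.17% called beside 5.18% of the background, and 13.0% at that p beside 17.8% of the background. Alyref, an mRNA export adaptor placed with the exon junction complex, rose to 260.6 in the second condition, against 161.7 in the first, and its q was 0.00892 in the authors' deposited table. Elavl4, a neuronal RNA-binding protein, fell to 2.13 in the second condition, against 4.24 in the first, and its q was 0.00892 in the authors' deposited table. Among the 6 measured kinases of SR proteins 0 were called, and Clk1 and Clk4 stood lowest, at log2 folds of -0.57 and -0.58 with q of 0.102 and 0.168 in the authors' deposited table. Of 13 RNA helicases 0 were called and 0 had an unadjusted p under 0.05. In the Prp19 complex and its partners 0 of 13 were called and 2, Bcas2 and Syf2, had an unadjusted p under 0.05, with log2 folds of -0.61 and -0.53 in the authors' deposited table. In the SMN complex, which loads Sm rings onto RNA, 0 of 8 were called and 2, Gemin4 and Gemin5, had such a p, with log2 folds of 0.40 and 0.53 there.

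The cells' identity was checked with marker genes. Of 9 neural stem cell markers 8 were measured, of which Nes and Sox1 were called higher and Fabp7 lower. Fabp7 stood at 2286 in the second and 4620 in the first condition, and Sox1 at 20.3 in the second and 10.8 in the first, in the authors' deposited table. Sox2 stood at 51.1 in the second and 59.7 in the first condition, Nes at 169.8 in the second and 98.1 in the first, and Vim at 774.8 in the second and 709.3 in the first condition in the authors' deposited table. Of 8 neuron markers, Dcx and Stmn2 are not among the rows analysed here, and the others except Map2 stayed under a level of 7. Likewise 0 of 12 markers of fibroblasts, microglia and endothelium are among those rows. Of the 4 astrocyte markers 1 was called higher and 2 lower. Aldh1l1 was the higher one, at 11.6 in the second and 4.98 in the first condition in the authors' deposited table. Gfap, at 5.08 in the second and 29.7 in the first, and Aqp4, at 3.52 and 8.27, were lower, and S100b was not called. The 4 markers summed to 26.8 in the second and 53.2 in the first condition, a difference that lay mostly in Gfap. The part of astrocyte markers in the values above was not tested. In RNA from a whole culture, fewer cells of a type and less RNA per cell cannot be told apart.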

How the data were processed

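Poly(A) RNA of 6 libraries was measured by SOLiD sequencing, per the labels' protocols. TopHat2 2.0.9, Cufflinks 2.2.1, an unnumbered Cuffdiff and mm10 are listed in the submitters' processing notes. Annotation and use of strand: not given in the sources used here. Per the file headers, the authors deposited 1 level per gene in a first and a second condition, the log2 fold between them, a score (the test statistic), p-values with their q-values, and a mark for called genes. The deposited levels are taken as FPKM, which the header does not state. Depth per library is unknown. Values carry no SD or n because only 1 level per condition was given, without the libraries behind it, and the authors' tests were kept.

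Members and lists were chosen with earlier results of these data known. Named genes are those the authors called, the 10 largest folds each way, the 5 most abundant, the most abundant of each role, the paralogue families, and called genes of the other splicing lists. Beside these, members that complete a complex or family are named, chosen after their values were seen. Of 12316 rows, 82 listed more than 1 gene and 166 had a symbol that recurs, and both kinds were left out. Positions and lengths (longest transcript, coding where there is one) came from GENCODE M21 on GRCm38. Length was known for 99.3% of background genes. Upstream sequences came from RefSeq on GRCm38.p6. Near copies were sought with BLAST+ 2.17.0. Other steps used Python 3.11.15, pandas 2.3.3 and scipy 1.17.1. Only the q adjustment and the recovery of a planted shift in the members' median were tested on simulated data. Alternatives were other level minimums (none, 5), pseudocounts (0.1, 1), recomputed q, stricter calls, centring, and leaving out Rbm genes or the longest transcripts.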

Additional observations from a re-analysis of the deposited data

How the results depend on the processing

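The single rise, Prpf8, became 2 rises with q recomputed over the background genes, Mbnl1 being the second, and 0 at a q of at most 0.01, at an absolute log2 fold of at least 1, or without the longest 10% of transcripts, to which Prpf8 belongs. It stayed at 1 with no minimum level, with a minimum of 5 and without Rbm genes. A minimum of 5 and leaving out Rbm genes could not remove Prpf8, which stood at 74.5 and 50.7 and is no Rbm gene. The count of falls was 0 under each of these 7 alternatives. Stricter calls and leaving out genes can only lower a count. For falls, only no minimum level and the recomputed q could thus have given another count. The members' median log2 fold of -0.04 lay between -0.06 and -0.0068 under 8 alternatives, of which taking off the length group's median and leaving out members with a near copy were chosen after the data were seen. For 38 named members, 0 changed sign with a pseudocount, which cannot change a sign, or with centring, which took off only 0.00039. These 2 alternatives therefore say nothing about the signs. Of the 38, 4 that were not called (Celf1, Rbfox2, Snrpb and Snrpc) changed sign once the length group's median was taken off. That step also moved others over 1.5 times without a change of sign, among them Nova2 to 0.24, Nova1 to -0.40, Celf2 to 0.05, Qk to -0.33, Snrnp27 to -0.20, Snrpg to -0.24, Snrpe to -0.28, Sf3b6 to -0.27 and Prpf8 to 0.32. No paired analysis was possible because only 1 level per condition was deposited, and for the same reason no replicate could be left out. What depth limits cannot be stated, as no counts were given.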
